A study of Rattus norvegicus with 16 samples.

Results

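The fibrillar collagen genes examined here were *Col1a1*, *Col1a2*, *Col3a1*, *Col5a1*, *Col5a2*, *Col5a3* and *Col11a1*, 7 genes of which 6 were among the 15443 that could be named on the array. A probe was taken as a member when its accession was a RefSeq transcript of one of these genes, which gave 9 of 30367 probes. No probe was matched to *Col5a2* by its accession, so this gene was not analysed here. A probe of the array that could not be named may still measure it. *Col1a1* (NM_053304) had 2 probes and *Col11a1* (NM_013117) had 3, while *Col1a2* (NM_053356), *Col3a1* (NM_032085), *Col5a1* (NM_134452) and *Col5a3* (NM_021760) had 1 each. The probe with the highest signal stood for its gene in all counts.

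RNA came from mesenteric arteries, the small arteries that supply the gut, of male rats of 2 strains and 2 ages. Spontaneously hypertensive rats (SHR) develop high blood pressure as they mature, and Wistar Kyoto rats (WKY) are their normotensive counterparts; 6 weeks was the young age and 5 months the mature age. The groups carried no transgene and differed in strain and age, and all animals were anesthetized with isoflurane and heparinized before the vessels were taken. The WKY groups were made of the sublines WKY/NCrL, WKY/NTac and WKY/NHsd, and the SHR groups of SHR/NCrL, SHR/NHsd and the stroke-prone SHR/SP, with vessels of 5 animals pooled for each subline and age. Both NHsd arrays of 5 months failed the study's quality control, so WKY and SHR each had 3 pools at 6 weeks and 2 pools at 5 months, and 14 arrays covered 10 pools because 4 SHR pools were hybridised a second time. Each pool is 1 RNA sample of 1 subline, so the spread between pools is one between sublines, and the number of pools limits the precision. The p-values below rest on that spread together with the spread between repeat arrays of a pool. Where 1 value or 1 array per pool was used, as stated there, they rest on the pools alone. The 6-week groups held a subline (NHsd) that the 5-month groups lacked.

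Fibrillar collagens are long triple helices that assemble into the tension-bearing fibrils of the vessel wall. Type I collagen is built from the chains of *Col1a1* and *Col1a2*, type III from *Col3a1* alone, and these types make up most of the arterial fibril, whereas the type V and type XI chains are minor components that lie inside fibrils and govern how they start and how thick they grow. In arteries the chains are made by adventitial fibroblasts and smooth muscle cells, mostly while the wall is being built, and the finished protein turns over slowly.

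RefSeq promoter sequences (build GRCr8, 250 bases before to 50 after the annotated start) were at hand for 5 of the 7 genes. They are shown for the 4 of these that were measured, since 3 of them were called lower at 5 months in SHR and *Col11a1* was not. Capitals mark matches, on either strand, to CCAAT (on the other strand it reads ATTGG), to the GC box GGGCGG (on the other strand it reads CCGCCC) and to the TATA box TATAAA. No matches overlapped.
Col1a2, chr4:33518307-33518606, plus strand: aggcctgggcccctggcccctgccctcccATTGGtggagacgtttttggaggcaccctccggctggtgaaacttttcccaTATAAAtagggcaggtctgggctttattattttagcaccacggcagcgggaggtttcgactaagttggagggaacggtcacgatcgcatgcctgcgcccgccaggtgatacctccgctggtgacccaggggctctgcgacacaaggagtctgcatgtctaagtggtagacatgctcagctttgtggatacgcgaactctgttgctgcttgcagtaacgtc
Col5a1, chr3:31606630-31606929, plus strand: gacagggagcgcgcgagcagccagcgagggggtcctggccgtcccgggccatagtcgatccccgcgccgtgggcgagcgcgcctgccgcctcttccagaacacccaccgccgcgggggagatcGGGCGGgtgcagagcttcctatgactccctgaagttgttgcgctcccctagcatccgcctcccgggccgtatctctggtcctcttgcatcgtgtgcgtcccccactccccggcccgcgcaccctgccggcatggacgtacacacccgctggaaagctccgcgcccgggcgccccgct
Col5a3, chr8:27625899-27626198, minus strand: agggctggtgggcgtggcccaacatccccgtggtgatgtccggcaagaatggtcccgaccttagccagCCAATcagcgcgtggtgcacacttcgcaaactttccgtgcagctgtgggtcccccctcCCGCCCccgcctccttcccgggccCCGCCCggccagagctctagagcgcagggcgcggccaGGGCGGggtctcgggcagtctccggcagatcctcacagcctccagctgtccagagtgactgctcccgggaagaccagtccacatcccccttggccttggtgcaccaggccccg
Col11a1, chr2:204508886-204509185, plus strand: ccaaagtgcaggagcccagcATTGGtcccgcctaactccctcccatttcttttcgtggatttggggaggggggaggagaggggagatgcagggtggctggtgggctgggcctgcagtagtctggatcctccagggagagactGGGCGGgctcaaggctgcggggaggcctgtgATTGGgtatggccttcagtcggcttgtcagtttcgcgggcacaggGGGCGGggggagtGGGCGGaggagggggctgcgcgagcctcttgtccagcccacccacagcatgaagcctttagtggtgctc

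The *Col1a2* window alone held a TATA box, and it began 170 bases before the annotated start. CCAAT was found in the windows of *Col1a2*, *Col5a3* and *Col11a1*, and GGGCGG in those of *Col5a1*, *Col5a3* and *Col11a1*, with 3 copies in each of the latter 2. Over all 33469 promoters of that length, 37.5% held CCAAT, 33.1% GGGCGG and 14.2% TATAAA. The windows were 57.0% (*Col1a2*), 72.0% (*Col5a1*), 69.0% (*Col5a3*) and 64.7% (*Col11a1*) G and C, against a median of 51.7%. The window of *Col5a2*, not shown, was 47.7% G and C and held none of these motifs. These matches describe the letters of the windows and say nothing of what binds there.

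All 6 measured genes had a lower level at 5 months than at 6 weeks in both strains. The level is the log2 ratio of a pool (test channel) over a common reference pooled from all test samples, so a value of 0 is the reference level and values of different probes are not comparable. Averaged over the strains, *Col1a1* fell by 2.48 ± 0.26 (SE) on the log2 scale, *Col3a1* fell by 2.01 ± 0.21, *Col1a2* fell by 1.57 ± 0.22, *Col5a3* fell by 1.53 ± 0.26 and *Col5a1* fell by 1.00 ± 0.14. These 5 of 6 genes passed the test (limma adjusted p from 0.000149 to 0.00638, Benjamini-Hochberg over all probes, called under 0.05), in a comparison where 1.16% of all probes were called lower and 1.69% in either direction. *Col11a1* had a change of −0.77 ± 0.20 (adjusted p = 0.076). The median change was −1.55 over the 6 genes and 0.007 over all probes. Since pools hold whole vessels, fewer collagen-making cells and less collagen RNA per cell cannot be told apart.

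In WKY, 2 of 6 genes were called lower (background 0.148% lower, 0.181% in either direction), with a median change of −1.498. In SHR, 5 of 6 genes were called lower (background 0.685% lower, 1.04% in either direction), with a median of −1.59. In each strain, all 6 genes had, on their brightest probe, every pool of 5 months below every pool of 6 weeks, which held for 11.1% of all probes in WKY and 11.6% in SHR. Which genes passed in a single strain rested on few pools, as given gene by gene below, while the averaged comparison called 5 or 6 genes whichever pool was left out. The fit counted a second array of a pool as a correlated measurement. With the arrays of each pool averaged to 1 value beforehand, 1 gene was called in WKY (*Col3a1*), 0 in SHR and 4 in the average, which lost *Col5a3*, and the calls over all probes in SHR went from 317 to 7.

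**Figure D1:**
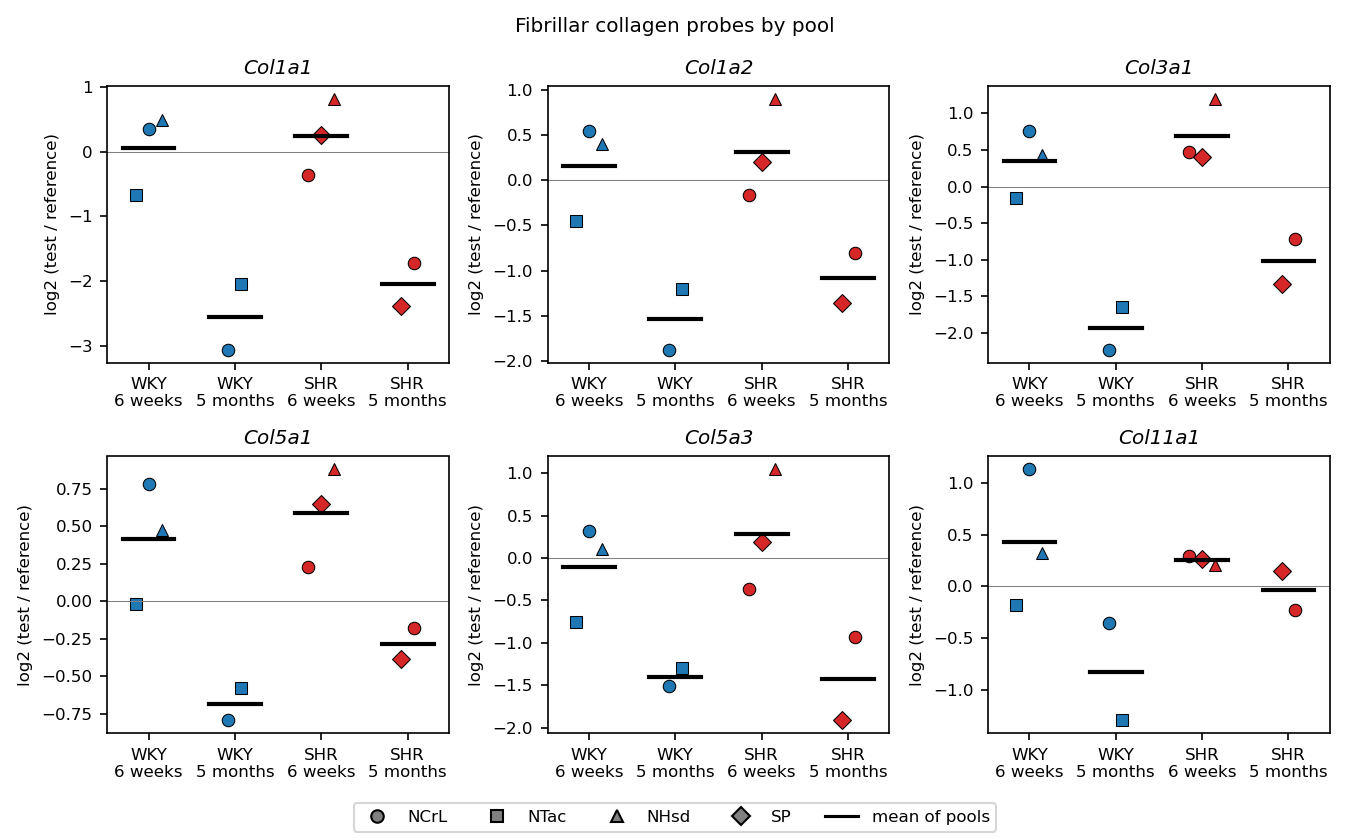
Log2 ratio of test over reference (y axis) of the brightest probe of each gene in the 10 pools, by strain and age (x axis). Points are pools, their shape the subline, and bars the means; the 5-month pools lie below all 6-week pools of the same strain in each panel, by the smallest margin for *Col11a1* in SHR.

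*Col1a1*, the gene of the main type I chain, showed the largest change of the 6 on its brighter probe. In WKY its log2 ratio at 6 weeks was 0.36 (WKY/NCrL), −0.67 (WKY/NTac) and 0.49 (WKY/NHsd), and at 5 months −3.06 (WKY/NCrL) and −2.04 (WKY/NTac). In SHR it was −0.36 (SHR/NCrL), 0.26 (SHR/SP) and 0.82 (SHR/NHsd) at 6 weeks, and −1.71 (SHR/NCrL) and −2.39 (SHR/SP) at 5 months. The ages did not overlap in either strain, and at 6 weeks the NTac pool of WKY and the NCrL pool of SHR were the lowest. The change was 6.11-fold lower in WKY (log2 −2.61 ± 0.39 SE, limma adjusted p = 0.00936) and 5.11-fold lower in SHR (−2.35 ± 0.34, adjusted p = 0.00443).

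On the array's own scale, the test-channel signal of this *Col1a1* probe, a linear intensity scaled to a common 75th percentile, went from 130000 to 13300 in WKY/NCrL and from 79700 to 27600 in WKY/NTac. It went from 90900 to 37700 in SHR/NCrL and from 136000 to 24200 in SHR/SP. The signal stayed bright at 5 months, far from background, in all 4 sublines. The other *Col1a1* probe was 3.18-fold lower in WKY (adjusted p = 0.044) and 2.67-fold lower in SHR (adjusted p = 0.0179), the same direction with a smaller change. Its averaged change (−1.54) was below those of *Col3a1* and *Col1a2* in size.

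The *Col1a1* call in WKY was lost without the 5-month WKY/NCrL pool (−2.10, adjusted p = 0.176) or the 6-week WKY/NCrL pool (−2.46, adjusted p = 0.0583), and with the subline as a block, which pairs the ages by subline (−2.40, adjusted p = 0.0701). The call in SHR was lost without the 5-month SHR/SP pool (−2.02, adjusted p = 0.118). Within the slides, which each held all 4 groups, the changes were −2.90 and −2.54 in WKY and −1.69 and −2.59 in SHR. Within a slide the ages did not hold the same sublines, so these values, here and for the genes below, mix age with subline. On slide 2 the WKY value set WKY/NTac of 5 months against WKY/NHsd of 6 weeks, while the change within WKY/NTac was −1.37.

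*Col1a2*, which encodes the partner chain of type I collagen, followed *Col1a1* pool by pool. At 6 weeks its log2 ratio was 0.54, −0.45 and 0.40 in WKY/NCrL, WKY/NTac and WKY/NHsd, and at 5 months −1.88 and −1.20 in WKY/NCrL and WKY/NTac. At 6 weeks it was −0.17, 0.20 and 0.90 in SHR/NCrL, SHR/SP and SHR/NHsd, and at 5 months −0.80 and −1.36 in SHR/NCrL and SHR/SP. The order of the pools within each group was that of *Col1a1* except that WKY/NCrL and WKY/NHsd of 6 weeks changed places. Its change was −1.70 ± 0.34 in WKY (adjusted p = 0.0653) and 2.71-fold lower in SHR (−1.44 ± 0.29, adjusted p = 0.0273).

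The signal of *Col1a2* went from 187000 to 51900 in WKY/NCrL, from 137000 to 81500 in WKY/NTac, from 146000 to 106000 in SHR/NCrL and from 175000 to 81900 in SHR/SP. The SHR call was lost without any of 4 pools, namely SHR/SP of 5 months (adjusted p = 0.296), SHR/NCrL of 5 months (0.0706), SHR/SP of 6 weeks (0.125) and SHR/NHsd of 6 weeks (0.195), and a call was gained in WKY without WKY/NTac of 6 weeks (−2.01, adjusted p = 0.0158). Changes within the slides were −1.92 and −1.60 in WKY and −0.93 and −1.61 in SHR.

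*Col3a1*, the sole chain of type III collagen, the fibril collagen of distensible tissues, was 4.86-fold lower in WKY (−2.28 ± 0.31 SE, limma adjusted p = 0.00562) and 3.33-fold lower in SHR (−1.74 ± 0.27, adjusted p = 0.00716). Its log2 ratio in WKY was 0.76 (WKY/NCrL), −0.15 (WKY/NTac) and 0.43 (WKY/NHsd) at 6 weeks and −2.23 (WKY/NCrL) and −1.64 (WKY/NTac) at 5 months. In SHR it was 0.47 (SHR/NCrL), 0.41 (SHR/SP) and 1.20 (SHR/NHsd) at 6 weeks and −0.71 (SHR/NCrL) and −1.33 (SHR/SP) at 5 months. No pools of the 2 ages overlapped, and the 5-month SHR pools lay above both 5-month WKY pools.

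The *Col3a1* signal went from 150000 to 22700 in WKY/NCrL, from 106000 to 35200 in WKY/NTac, from 136000 to 60900 in SHR/NCrL and from 133000 to 45100 in SHR/SP. The WKY call was lost without the 5-month WKY/NCrL pool (−1.99, adjusted p = 0.107), and the SHR call without the 5-month SHR/SP pool (−1.43, adjusted p = 0.131) or the 6-week SHR/NHsd pool (−1.46, adjusted p = 0.061). Within the slides the changes were −2.54 and −2.07 in WKY and −1.55 and −1.76 in SHR.

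**Figure D2:**
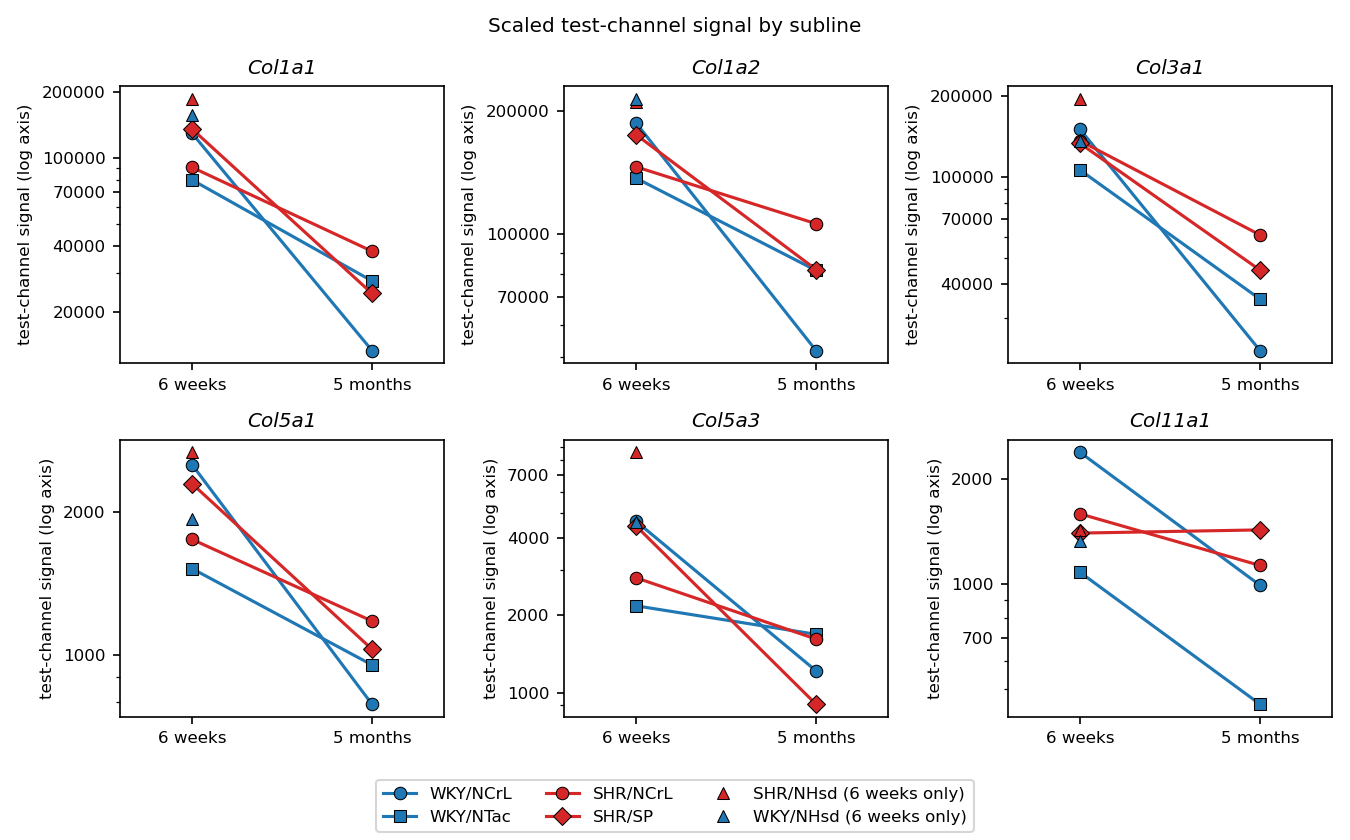
Scaled test-channel signal (log y axis, linear intensity units) of the brightest probe of each gene at 6 weeks and 5 months, with lines joining pools of the same subline. Triangles are the NHsd pools, which have a value at 6 weeks only; of the 24 lines, the one for *Col11a1* in SHR/SP (1400 to 1430) does not descend.

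The type V genes encode the chains that nucleate fibrils. *Col5a1*, which gives the chain found in every type V trimer of most tissues, had log2 ratios in WKY of 0.78 (WKY/NCrL), −0.02 (WKY/NTac) and 0.47 (WKY/NHsd) at 6 weeks and of −0.79 (WKY/NCrL) and −0.58 (WKY/NTac) at 5 months. In SHR they were 0.23 (SHR/NCrL), 0.65 (SHR/SP) and 0.88 (SHR/NHsd) at 6 weeks and −0.18 (SHR/NCrL) and −0.38 (SHR/SP) at 5 months. The gap between the ages was narrow in SHR/NCrL and wide in WKY/NCrL. The change was −1.10 ± 0.22 in WKY (limma adjusted p = 0.0661) and 1.87-fold lower in SHR (−0.90 ± 0.19, adjusted p = 0.0322).

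The signal of *Col5a1* went from 2510 to 790 in WKY/NCrL, from 1520 to 955 in WKY/NTac, from 1750 to 1180 in SHR/NCrL and from 2290 to 1030 in SHR/SP. The SHR call of *Col5a1* was lost without SHR/SP of 5 months (adjusted p = 0.282), SHR/NCrL of 5 months (0.126), SHR/SP of 6 weeks (0.187) or SHR/NHsd of 6 weeks (0.245), and a WKY call was gained without WKY/NTac of 6 weeks (−1.31, adjusted p = 0.0114) or SHR/NCrL of 6 weeks (adjusted p = 0.048). Within the slides it changed by −1.17 and −1.05 in WKY and by −0.53 and −1.03 in SHR.

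*Col5a3*, whose chain is made in fewer tissues than that of *Col5a1*, was the one gene of the 5 most alike with a larger change in SHR than in WKY. Its log2 ratios in WKY were 0.32 (WKY/NCrL), −0.75 (WKY/NTac) and 0.11 (WKY/NHsd) at 6 weeks and −1.504 (WKY/NCrL) and −1.30 (WKY/NTac) at 5 months. In SHR they were −0.37 (SHR/NCrL), 0.18 (SHR/SP) and 1.05 (SHR/NHsd) at 6 weeks and −0.93 (SHR/NCrL) and −1.91 (SHR/SP) at 5 months. Both SHR groups spread widely, with SHR/SP the lowest pool of 5 months and SHR/NHsd the highest of 6 weeks. The change was −1.29 ± 0.40 in WKY (limma adjusted p = 0.371) and 3.43-fold lower in SHR (−1.78 ± 0.34, adjusted p = 0.0212), and the difference between them was −0.48 ± 0.52 (interaction, adjusted p = 1).

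The *Col5a3* signal went from 4640 to 1220 in WKY/NCrL, from 2180 to 1690 in WKY/NTac, from 2800 to 1620 in SHR/NCrL and from 4450 to 905 in SHR/SP. The SHR call of *Col5a3* was lost without SHR/SP of 5 months (−1.29, adjusted p = 0.285), SHR/SP of 6 weeks (adjusted p = 0.111) or SHR/NHsd of 6 weeks (−1.37, adjusted p = 0.146). On the 5-month WKY/NHsd array that failed quality control its log2 ratio was 0.75, above every passing WKY pool, and with both failed arrays included the averaged change was −1.004 (adjusted p = 0.307). Within the slides it changed by −1.29 and −1.41 in WKY and by −1.10 and −1.99 in SHR.

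*Col11a1*, a type XI chain best known from cartilage that can also join type V trimers, was called in neither strain. At 6 weeks its log2 ratio was 1.14 in WKY/NCrL, −0.18 in WKY/NTac and 0.33 in WKY/NHsd, and at 5 months −0.35 in WKY/NCrL and −1.30 in WKY/NTac. In SHR it was 0.30 (SHR/NCrL), 0.26 (SHR/SP) and 0.20 (SHR/NHsd) at 6 weeks and −0.23 (SHR/NCrL) and 0.15 (SHR/SP) at 5 months. In WKY both sublines were lower at 5 months, while the SHR pools of both ages lay close together. Its change was −1.25 ± 0.31 in WKY (limma adjusted p = 0.167) and −0.29 ± 0.27 in SHR (adjusted p = 0.908).

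The other 2 *Col11a1* probes gave −1.33 ± 0.28 and −1.08 ± 0.25 in WKY (adjusted p = 0.0798 and 0.135) and −0.21 ± 0.24 and −0.10 ± 0.22 in SHR (adjusted p = 0.946 and 0.985). The difference between the strains was 0.96 ± 0.41, 1.12 ± 0.37 and 0.98 ± 0.33 on the 3 probes (unadjusted p = 0.0318, 0.00814 and 0.0104, adjusted p = 1 for each in limma). No probe of the array was called in this interaction (0%, of 30367 probes, with 1250 at an unadjusted p under 0.05), so the *Col11a1* difference did not pass the adjusted test. In WKY the call appeared without WKY/NTac of 6 weeks (−1.56, adjusted p = 0.0339) and with the subline as a block (−1.30, adjusted p = 0.0191). Within the slides *Col11a1* changed by −0.83 and −1.62 in WKY and by −0.38 and −0.23 in SHR.

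**Figure D3:**
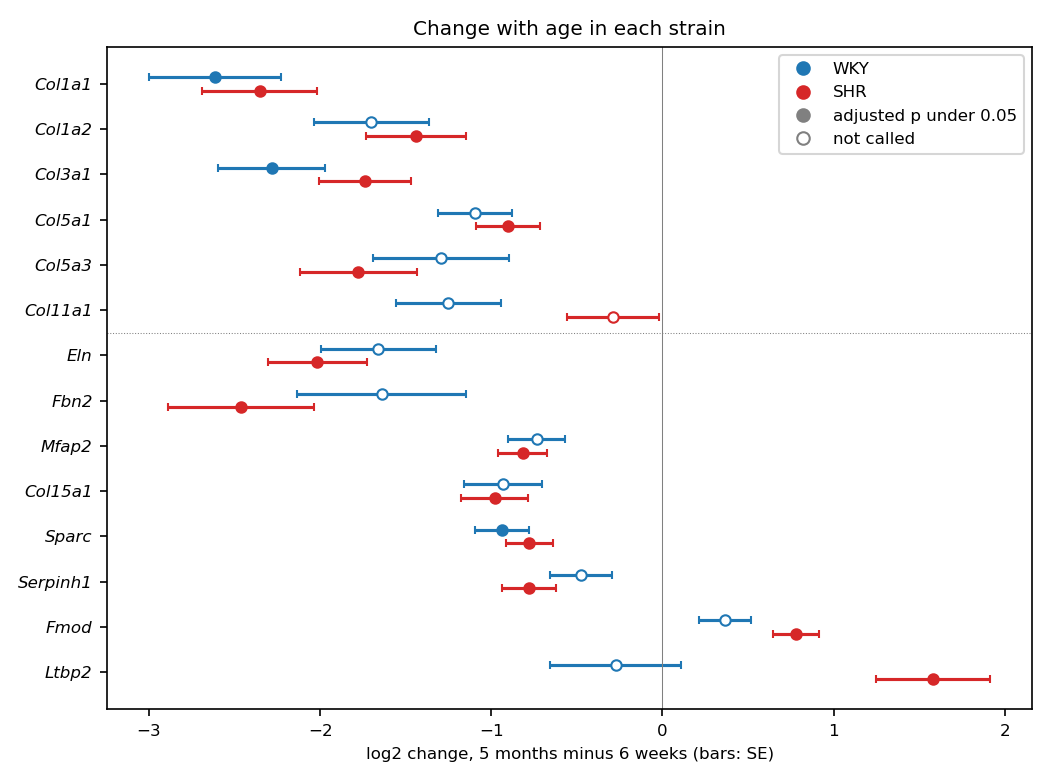
Log2 change from 6 weeks to 5 months (x axis) with its SE in WKY and SHR for the 6 fibrillar collagen genes (above the dotted line) and for 8 genes of other matrix lists that were called in at least 1 strain. Filled points have an adjusted p under 0.05; the collagen changes run from −2.61 to −0.29.

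Compared within a subline, all 24 changes (6 genes in 4 sublines present at both ages, brightest probe) were below 0. Their sign follows from the lack of overlap between the ages given above and adds nothing to it. On another *Col11a1* probe the change in SHR/SP was 0.06, and on the brightest it was −0.12, less than the 0.244 by which the repeat arrays of the 6-week SHR/SP pool differed for this gene. Over all probes, 8.64% were lower at 5 months in all 4 sublines, and 48.8% to 51.1% in any one of them. For *Col1a1* the log2 change was −3.42 in WKY/NCrL, −1.37 in WKY/NTac, −1.35 in SHR/NCrL and −2.65 in SHR/SP. For *Col3a1* it was −2.99 in WKY/NCrL, −1.49 in WKY/NTac, −1.18 in SHR/NCrL and −1.74 in SHR/SP. Sublines of the same strain did not change alike: the change was greatest in WKY/NCrL for *Col1a1*, *Col1a2*, *Col3a1*, *Col5a1* and *Col11a1*, and in SHR/SP for *Col5a3*. Each of these values compares 1 pool with 1 pool, so none has a replicate of its own. Arrays of the same pool differed by a median of 0.078 on the log2 scale for these genes (range 0.009 to 0.319, 4 pools hybridised again).

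Across the 10 pools the log2 ratios of *Col1a1*, *Col1a2*, *Col3a1*, *Col5a1* and *Col5a3* had pairwise Pearson correlations from 0.921 (*Col3a1* with *Col5a3*) to 0.99 (*Col1a1* with *Col1a2*), while those of *Col11a1* with them ran from 0.573 to 0.739. The points share the reference and the age difference, and are given as a description. The mean centred profile of the 6 genes was lowest in WKY/NCrL of 5 months (−1.33) and highest in SHR/NHsd of 6 weeks (1.15). The 6-week WKY/NTac pool, at −0.06, was the lowest of the 6-week pools and the SHR/NCrL pool, at −0.45, the highest of the 5-month pools. No pool of one age passed into the range of the other.

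Of 9604 other genes well above background on all arrays, the 10 with the profile most like it over the 10 pools were *Lamc1* (r = 0.985), *Adamts12* (0.981), *Col15a1*, *Apaf1* and *Mmp14* (0.972 each), *Sparc* (0.971), *Ndn* (0.967), *Ormdl1* (0.964), *C1qtnf6* (0.959) and *Tyro3* (0.956). They include a laminin chain (*Lamc1*), matrix-cutting proteases (*Adamts12*, *Mmp14*), a collagen of the basement membrane zone (*Col15a1*) and the collagen-binding glycoprotein *Sparc*, beside the apoptosome component *Apaf1*, the imprinted gene *Ndn* and the receptor kinase *Tyro3*. Likeness of profile does not mean likeness of size: the changes were −1.87 in WKY and −1.74 in SHR for *C1qtnf6*, −1.46 and −1.25 for *Ndn*, and −0.35 and −0.42 for *Apaf1*.

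Between the strains, no fibrillar collagen gene was called at either age. At 6 weeks SHR minus WKY ran from −0.18 (*Col11a1*) to 0.46 (*Col5a3*), with limma adjusted p from 0.835 to 0.953, no gene at an unadjusted p under 0.05, and 0.29% of all probes called. At 5 months it ran from −0.02 (*Col5a3*) to 0.91 (*Col3a1*), with adjusted p from 0.376 to 0.997 and 0.395% of all probes called. *Col3a1* was 1.88-fold higher in SHR at 5 months (0.91 ± 0.32 SE, unadjusted p = 0.0113, adjusted p = 0.376) and *Col11a1* 1.72-fold higher (0.79 ± 0.31, unadjusted p = 0.0238, adjusted p = 0.493). *Col3a1*, *Col5a1* and *Col11a1* had both SHR pools above both WKY pools at 5 months, which held for 19.9% of all probes. With 2 pools a strain at 5 months, the adjusted test did not separate differences of this size from the spread between pools.

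For maturation in a single strain, the other collagens gave 1 call. Of the 4 remaining fibrillar genes of the vertebrate family, 2 were measured (*Col2a1* and *Col11a2*) and neither was called. Of 11 basement membrane and network collagens 5 were measured: none was called in WKY and *Col15a1*, a fibril-bridging collagen of the basement membrane zone, was 1.97-fold lower in SHR (−0.98 ± 0.20, limma adjusted p = 0.0258; −0.93 ± 0.23 in WKY, adjusted p = 0.162). None of the 5 measured of 16 microfibril and fibril-associated collagens was called in either strain, and their median change was −0.18 in WKY and −0.23 in SHR.

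The genes that make and mature collagen also gave 1 call within a strain. Of 17 measured folding and hydroxylation genes, 13 lay below 0 in each strain (median −0.31 in WKY and −0.12 in SHR), and the single call was *Serpinh1*, the collagen chaperone HSP47, in SHR, 1.72-fold lower (−0.78 ± 0.16, limma adjusted p = 0.0258; −0.47 ± 0.18 in WKY, adjusted p = 0.59). None of 8 measured propeptide cleavage and crosslinking genes was called in either strain (median −0.21 in WKY and −0.26 in SHR). Averaged over the strains the crosslinking oxidase *Loxl2* was called (−0.73, adjusted p = 0.0194), as was the basement membrane collagen *Col4a1* (−0.63, adjusted p = 0.0333). At 5 months *Col18a1* (0.89, adjusted p = 0.0358) and *Loxl1* (0.81, adjusted p = 0.0456) were called higher in SHR than in WKY. Both calls were lost without any 1 of the 4 pools of 5 months (differences from 0.75 to 1.03 and from 0.67 to 0.95). They were also lost with technical replicates averaged (adjusted p = 0.199 and 0.23) and without SHR/SP (0.0629 and 0.111) or SHR/NHsd (0.0735 and 0.0837) of 6 weeks. In all, 13 and 15 of 25 alternatives lost the call. These 4 genes were picked out after their values were seen.

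Among 12 measured proteoglycans and glycoproteins that bind fibrils, *Sparc*, a matricellular protein that binds newly made collagen, was lower in both strains. Its log2 ratio was 0.18 (WKY/NCrL), −0.22 (WKY/NTac) and −0.06 (WKY/NHsd) at 6 weeks against −1.09 (WKY/NCrL) and −0.85 (WKY/NTac) at 5 months, and 0.03 (SHR/NCrL), 0.29 (SHR/SP) and 0.34 (SHR/NHsd) against −0.46 (SHR/NCrL) and −0.62 (SHR/SP). The ages did not overlap in either strain. The change was 1.92-fold lower in WKY (−0.94 ± 0.16, limma adjusted p = 0.0241) and 1.71-fold lower in SHR (−0.78 ± 0.13, adjusted p = 0.0118). *Fmod*, fibromodulin, a small proteoglycan that coats fibrils, went the other way and was 1.72-fold higher in SHR (0.78 ± 0.13, adjusted p = 0.0104; 0.37 ± 0.15 in WKY, adjusted p = 0.684). The list as a whole was centred near 0, with medians of 0.10 in WKY and −0.02 in SHR.

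Elastic fibre genes build the recoiling partner of the collagen fibril. Of 11 measured, 3 were called lower in SHR (background 0.685% lower) and none in WKY (background 0.148% lower). The median change was −0.58 in SHR and −0.30 in WKY. These counts do not show a difference between the strains, since no probe of the array was called in the interaction. Only SHR pools had repeat arrays, and the SEs below are smaller in SHR. *Eln*, elastin itself, was 4.05-fold lower in SHR (−2.02 ± 0.29, limma adjusted p = 0.00443) and changed by −1.66 ± 0.34 in WKY (adjusted p = 0.0708). *Fbn2*, the fibrillin of growing tissue, was 5.51-fold lower in SHR (−2.46 ± 0.43, adjusted p = 0.0118) and changed by −1.64 ± 0.49 in WKY (adjusted p = 0.355). *Mfap2*, a small microfibril protein, was 1.76-fold lower in SHR (−0.82 ± 0.14, adjusted p = 0.0123) and changed by −0.74 ± 0.17 in WKY (adjusted p = 0.118). The change in SHR minus that in WKY was −0.36 ± 0.44 for *Eln*, −0.82 ± 0.65 for *Fbn2* and −0.08 ± 0.22 for *Mfap2*. *Eln* gained a WKY call in 7 of 28 alternatives.

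Genes that sense, cut or induce collagen gave almost no calls. None of 6 measured collagen receptors and none of 13 collagen-cleaving enzymes and inhibitors was called in either strain, and *Mmp3*, *Mmp8*, *Mmp9* and *Mmp13* were not well above background on any passing array. Averaged over the strains, *Mmp14*, a membrane-bound collagenase, was lower (−0.62, limma adjusted p = 0.0118) and the inhibitor *Timp4* higher (0.80, adjusted p = 0.0312), both picked out after their values were seen. Of 15 TGF-beta ligands, receptors and targets, the pathway best known for inducing collagen genes, none was called in WKY and *Ltbp2*, a protein of the elastic fibre and microfibril, in SHR.

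*Ltbp2* rose 2.99-fold in SHR (1.58 ± 0.33, limma adjusted p = 0.0335), with log2 ratios of −0.40 (SHR/NCrL), 0.34 (SHR/SP) and −0.65 (SHR/NHsd) at 6 weeks and 0.66 (SHR/NCrL) and 2.07 (SHR/SP) at 5 months. SHR/SP was the highest SHR pool at both ages, and without its 5-month pool the change was 0.87 (adjusted p = 0.381). The call was also lost without any single 6-week SHR pool (adjusted p = 0.0582 for SHR/NCrL, 0.0565 for SHR/SP and 0.248 for SHR/NHsd). At 5 months *Ltbp2* was 5.33-fold higher in SHR than in WKY (adjusted p = 0.0122), a call lost without SHR/SP of 5 months (1.71, adjusted p = 0.145) or WKY/NCrL of 5 months (2.05, adjusted p = 0.203). The median of the list was 0.01 in WKY and 0.56 in SHR, where 11 of the 15 genes lay above 0 and 1 was called. Whether this pathway had a part in the collagen changes was not tested.

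These calls were lost in several settings, while their changes kept their direction. With median centring in place of loess, *Col15a1* (limma adjusted p = 0.124), *Serpinh1* (0.183), *Fmod* (0.109), *Mfap2* (0.0573) and *Ltbp2* (0.0699) lost the SHR call. *Sparc* lost its call in both strains (0.238 in SHR, 0.135 in WKY), while *Eln* and *Fbn2* kept theirs. With the processed signals, *Col15a1* (0.123), *Serpinh1* (0.1), *Fbn2* (0.058) and *Ltbp2* (0.116) lost the SHR call and the others kept it. With the repeat arrays of each pool averaged, the SHR calls of *Col15a1*, *Serpinh1*, *Fmod*, *Sparc*, *Eln*, *Fbn2*, *Mfap2* and *Ltbp2* were all lost (adjusted p from 0.14 to 0.312), as was the WKY call of *Sparc* (0.131). With the subline as a block, *Col15a1* (0.0959) and *Serpinh1* (0.0944) lost the call in SHR and *Sparc* (0.0866) in WKY. Leaving out SHR/SP of 5 months leaves 1 SHR pool at that age, and the calls over all probes in SHR then went from 317 to 12. Without the 5-month SHR/SP pool, the SHR calls of *Col15a1*, *Serpinh1*, *Fmod*, *Sparc*, *Eln*, *Fbn2* and *Mfap2* were all lost (adjusted p from 0.118 to 0.233), with changes such as −1.82 for *Eln* and −0.76 for *Serpinh1*. Without the 6-week SHR/NHsd pool all of them but *Eln* were lost (adjusted p from 0.0653 for *Fbn2* to 0.21 for *Serpinh1*), without the 6-week SHR/SP pool all but *Fmod* (from 0.0616 for *Eln* to 0.176 for *Col15a1*), and without the 5-month SHR/NCrL pool all but *Fmod* and *Eln* (from 0.0524 for *Sparc* to 0.149 for *Serpinh1*). The WKY call of *Sparc* was lost without WKY/NCrL of 5 months (0.323) or 6 weeks (0.113), WKY/NHsd of 6 weeks (0.0504), or SHR/SP (0.0711) or SHR/NHsd (0.0553) of 6 weeks. Without WKY/NTac of 6 weeks, WKY calls were gained for *Eln* (−2.13, adjusted p = 0.000516) and *Col15a1* (−1.15, adjusted p = 0.0339).

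**Figure D4:**
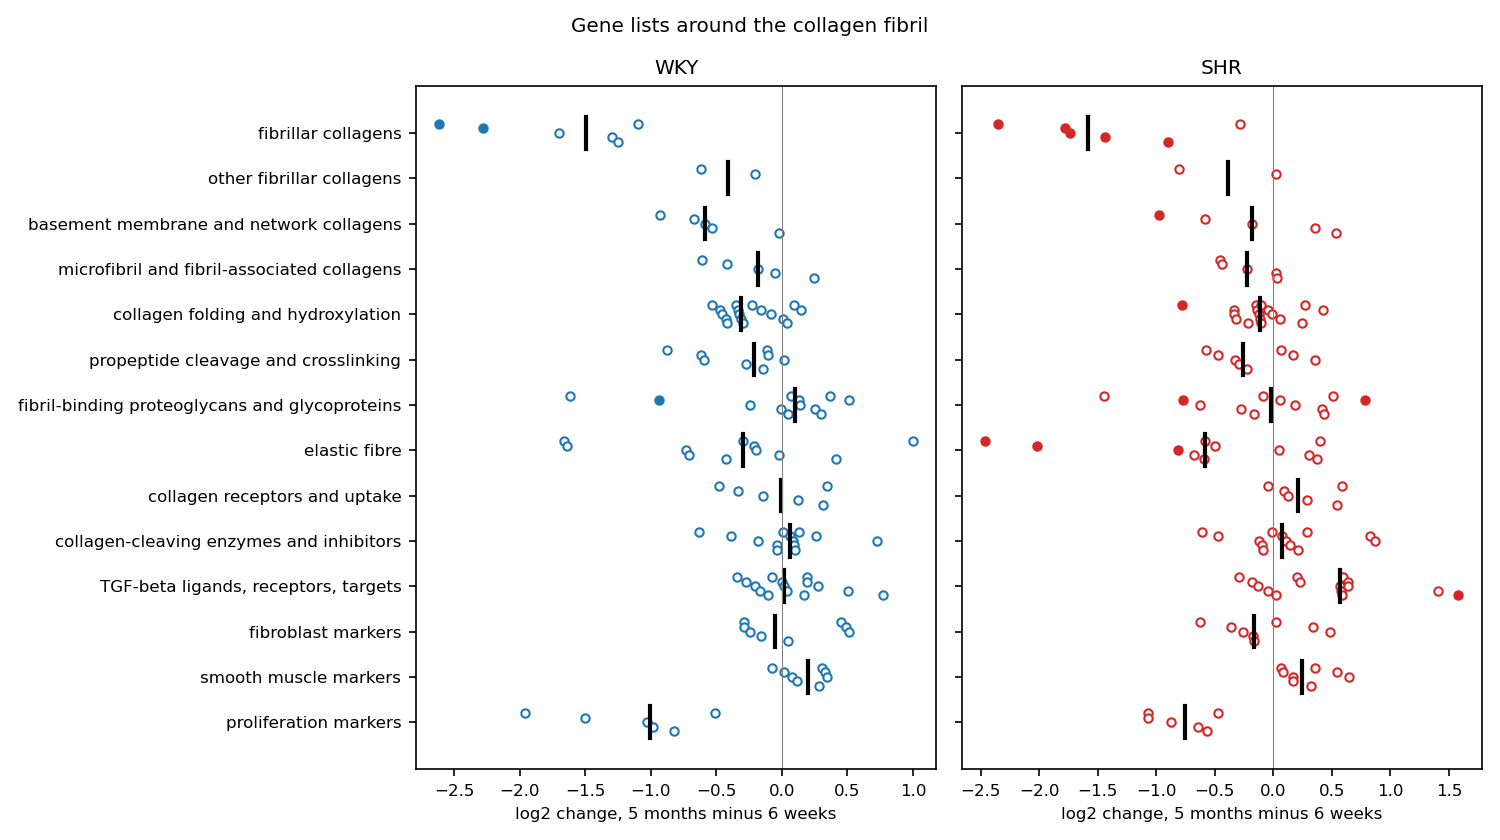
Log2 change from 6 weeks to 5 months (x axis) of each measured gene of the lists (y axis) in WKY and SHR, with bars at the list medians; filled points have an adjusted p under 0.05 and the vertical spread within a list has no meaning. The fibrillar collagens have the lowest median of the lists plotted in both strains.

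Markers of cell types were read beside these changes. The tissue label fitted the arrays in that all 8 measured smooth muscle markers and all 8 fibroblast markers were well above background on every passing array. Summed fibroblast marker signal was 41700 to 65600 at 6 weeks and 59800 to 66700 at 5 months in WKY, and 46500 to 64600 and 52800 to 54400 in SHR, so it did not separate the ages, and none of the 8 genes was called. Smooth muscle sums were 261000 to 297000 and 273000 to 295000 in WKY and 159000 to 244000 and 211000 to 281000 in SHR. The changes with age of all 8 genes lay above 0 in SHR (median 0.243) and of 7 in WKY (median 0.198), and none was called. Endothelial sums (5 genes) were 11500 to 16400 and 11600 to 17300 in WKY and 13300 to 15700 and 8890 to 11600 in SHR.

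Some marker sums were lower at 5 months without overlap, as the collagens were. Of all probes, each taken alone, 11.1% in WKY and 11.6% in SHR had every 5-month pool below every 6-week pool. The sums of 6 proliferation genes were 1160 to 2760 at 6 weeks and 296 to 661 at 5 months in WKY, and 2030 to 2340 and 749 to 1430 in SHR. Those of 6 Schwann cell genes were 8750 to 13700 and 6740 to 7910 in WKY and 10700 to 20900 and 7160 to 8310 in SHR. In the average over the strains, 4 of the 6 proliferation genes and 2 of the 6 Schwann cell genes were called lower, against 1.16% of all probes. Those of 6 adipocyte genes were 8460 to 37500 and 16800 to 23700 in WKY, which overlap, and 19200 to 54800 and 11300 to 13000 in SHR, which do not. The endothelial sums above did not overlap in SHR either, where all 5 genes lay below 0 and none was called. Their part in the collagen changes was not tested.

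Of the remaining lists, the 5 measured red blood cell genes summed to between 99300 and 347000, with the ages overlapping in both strains. In the average over the strains, 1 of these 5 was called lower. Mesothelial genes (4 measured) summed to 35.9 to 201 and lymphocyte genes (4 measured) to 91.3 to 347, close to background. Macrophage genes summed to 803 to 4610 with ages overlapping once *Adgre1* was left out, since its single spot read 336000 in WKY/NTac of 6 weeks and 33 to 149 in the other pools.

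**Figure D5:**
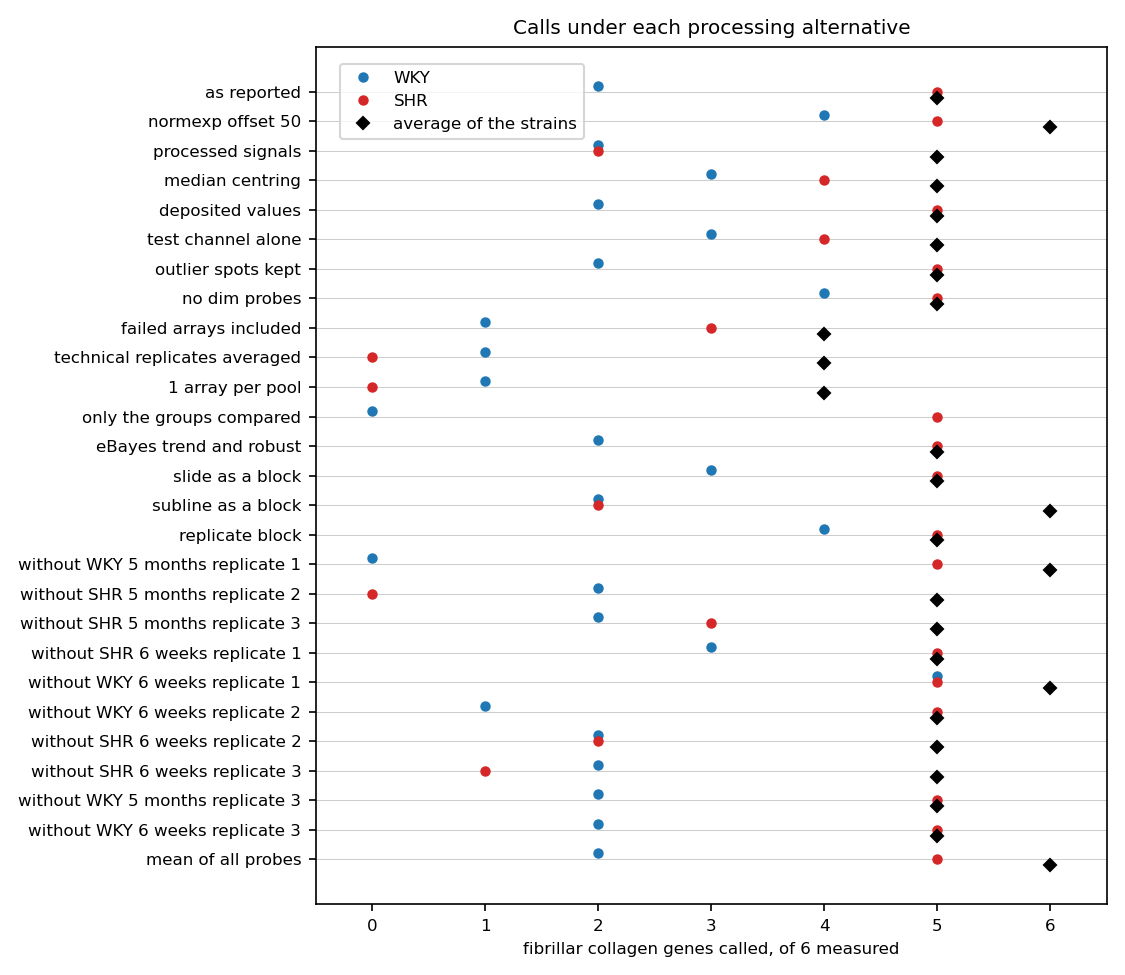
Number of fibrillar collagen genes called, of 6 measured (x axis), as reported and under each processing alternative (y axis), in WKY, in SHR and in the average over the strains, where it could be computed. The counts run from 0 to 5 in WKY and in SHR and from 4 to 6 in the average; the left-out replicates 1, 2 and 3 of 6 weeks are WKY/NTac, WKY/NCrL and WKY/NHsd, and SHR/NCrL, SHR/SP and SHR/NHsd, and those of 5 months are WKY/NCrL (1), WKY/NTac (3), SHR/SP (2) and SHR/NCrL (3).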

How the data were processed

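Gene expression of mesenteric artery pools was measured on 2-colour Agilent rat arrays. Test RNA was labelled with Cy3 and the common reference with Cy5, without dye swaps. Scanner output as deposited gave the intensity of each spot in either channel, extracted by the authors with Feature Extraction. The authors also deposited log2 ratios of test over reference, made with limma in R 3.0.0 (normexp, offset 15, and loess). The members and gene lists were chosen with earlier results of these data known.

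The ratios were rebuilt in the same way from median intensities (limma 3.58.1, R 4.3.3), with outlier-flagged spots (602 to 955 per passing array) left out and the spots of a probe averaged. With those spots kept, they differed from the deposited log2 values by at most 0.0565. The test-channel signal is the processed Cy3 intensity scaled to the mean 75th percentile of the passing arrays. Of their spots, 65.4% to 71.9% were well above background in that channel and none was saturated. All 9 collagen probes were well above background on all 14 passing arrays.

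All 14 arrays entered 1 limma fit (lmFit, eBayes) with a factor of the 4 groups and a correlation of 0.442 between arrays of a pool. Adjustment for multiple tests was by Benjamini-Hochberg, across all 30367 probes. Tested on simulated data (3000 probes, of which 200 changed by −1.5), the fit recovered 97% in WKY and 98.5% in SHR, and 5.4% and 4.4% of its calls were false. The simulated errors were normal and followed the fit's own model, with the same shift in every changed pool. These shares therefore check the code and do not measure how often real changes of that size are called. Probes were named through their accession and RefSeq (GRCr8), which matched 18355 probes (60.4%). List genes were named where called in a strain, at most 4 a list, and 10 genes by likeness of profile. Replicate numbers do not follow the sublines, so they were not used to pair pools. The alternatives covered background correction, normalization, filters, arrays, blocks (slide, subline, replicate number) and leaving out each pool.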

Additional observations from a re-analysis of the deposited data

How the results depend on the processing

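All 336 alternative values of the 6 genes' changes in WKY and SHR lay below 0, within the slides included. With a pool left out the sign could not turn, since no pools of the 2 ages overlapped within a strain on these probes. Nor could it turn with technical replicates averaged, with groups fitted on their own or with other eBayes settings, which reuse the same pool values. The values within the slides come from those pools too. A pool left out of 1 strain hardly moved the change in the other, so many of these values repeat. In the average over the strains 4 to 6 genes were called under every alternative that could be fitted, and none in the interaction or between the strains. The counts in a single strain moved. In WKY, 2 genes called as reported became 4 with a normexp offset of 50, without dim probes or with the replicate number as a block, 1 with the failed arrays included, with technical replicates averaged or with 1 array per pool, and 0 when the WKY groups were fitted on their own. In SHR, 5 became 2 with the processed signals or the subline as a block, 3 with the failed arrays included, and 0 with technical replicates averaged or with 1 array per pool. Calls over all probes moved too: in WKY from 55 to 87 with the offset, 69 (of 19276) without dim probes, 57 with the replicate block, 13 with the failed arrays, 15 with averaging, 14 with 1 array per pool and 0 for the WKY groups alone, and in SHR from 317 to 90 with processed signals, 393 with the subline block, 94 with the failed arrays, 7 with averaging and 9 with 1 array per pool. With the subline block the WKY count stayed at 2, but *Col1a1* was lost (adjusted p = 0.0701) and *Col11a1* gained (0.0191), and in SHR *Col1a2* (0.0915), *Col5a1* (0.102) and *Col5a3* (0.0535) were lost while calls over all probes rose. Leaving out a pool gave 0 to 5 in WKY and 0 to 5 in SHR. The cause was not tested, but the last 2 settings for technical replicates give the SHR groups fewer arrays. The replicate block left 5 called in SHR and 5 in the average; deviations of same-numbered pools correlated between −0.14 and 0.394 over 12 pairs, so the numbers were not taken as pairing. Leaving out a pool of 5 months leaves 1 pool of that strain, assumed to vary like the other groups, so a call lost there also reflects fewer samples.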
